A study of Mus musculus with 15 samples.

Results

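The genes described here are 36 interferon-stimulated genes of the mouse, a list of gene names drawn up with earlier results of these data known, out of 24421 gene symbols in the count table. All 36 were found in the table and 35 passed the filter on low counts. Mx1, which encodes an antiviral dynamin-like GTPase, did not pass, with 0 to 20 counts per library. The cells, called MAP, derive from adipocyte progenitors of the mouse that were immortalized, and they were profiled by RNA sequencing after ribosomal RNA depletion in 15 libraries. All 5 groups, the vehicle group included, had been differentiated first with insulin, isobutylmethylxanthine (500 µM), dexamethasone (1 µM) and rosiglitazone (1 µM) for 2 days, and then with insulin and rosiglitazone (1 µM) for 2 more days. From day 7 to 8 the groups received vehicle, forskolin for 4 h (FSK4h), forskolin for 1 day (FSK1D), forskolin for 3 days (FSK3D) or rosiglitazone for 3 days (Rosi3D), with 3 libraries each. Forskolin activates adenylyl cyclase and raises cAMP, and rosiglitazone activates PPARγ, a nuclear receptor that drives fat cell differentiation. The forskolin dose, the dose of the 3-day rosiglitazone treatment and the harvest time of the vehicle cells were not stated in the labels, and all groups had met rosiglitazone during differentiation.

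Interferons are secreted proteins that cells release on sensing viral nucleic acid. Type I interferons bind the receptor pair IFNAR1 and IFNAR2, the kinases JAK1 and TYK2 are activated there, and STAT2 and IRF9 enter the nucleus as subunits of the ISGF3 complex. ISGF3 binds the interferon-stimulated response element (ISRE) in the promoters of its target genes, whereas the gamma-activated site (GAS) serves mainly the response to interferon-gamma. Many of the target genes keep a low level of expression in cells with no infection, set by weak tonic signalling through the same receptors, and adipocytes carry these receptors too.

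The sequences that carry the ISRE are shown first because it is the element that most of these genes are known to share. Promoter windows of 300 bases (250 before to 50 after the start of transcription, RefSeq, GRCm38.p6) were at hand for 28 of the 36 members. The ISRE core, searched on both strands as GAAA followed by any 2 bases and a further GAAA, occurred in 14 of the 28 (50%), against 3.62% of the 10736 tested genes with a window. The GAS letters TTCNNNGAA, which read the same on both strands, occurred in 7 of the 28 (25.0%), against 8.43%. The full cAMP response element TGACGTCA occurred in 0 of the 28, against 3.46%, and its shorter core TGACG, searched on both strands and contained in the full element, in 6 (21.4%), against 34.2%. The members are known interferon targets, so the share with an ISRE describes the list and tests nothing. A match is a run of letters and not a measured binding site. The stretches below are 60 bases each, all upstream of the start, 5′ to 3′ in the direction of the gene, with the ISRE core in capitals (TTTC where it lies on the other strand). They are those of members with different behaviour in the results.
Ifit1: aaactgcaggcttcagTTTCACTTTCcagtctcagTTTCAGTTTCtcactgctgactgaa
Ifit3: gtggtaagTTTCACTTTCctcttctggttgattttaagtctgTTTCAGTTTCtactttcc
Isg15: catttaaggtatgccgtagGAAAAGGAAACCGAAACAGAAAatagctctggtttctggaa
Oas1a: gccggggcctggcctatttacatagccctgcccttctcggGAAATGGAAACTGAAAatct
Rsad2: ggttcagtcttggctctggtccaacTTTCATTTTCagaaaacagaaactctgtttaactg
Stat2: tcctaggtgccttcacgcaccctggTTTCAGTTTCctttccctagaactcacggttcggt
Bst2: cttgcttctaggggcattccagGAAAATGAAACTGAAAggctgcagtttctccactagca
Gbp3: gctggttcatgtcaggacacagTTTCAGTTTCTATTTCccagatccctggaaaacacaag
These lie at chr19:34640769-34640828 (Ifit1, plus strand), chr19:34583365-34583424 (Ifit3, plus), chr4:156200856-156200915 (Isg15, minus), chr5:120907526-120907585 (Oas1a, minus), chr12:26456538-26456597 (Rsad2, minus), chr10:128270251-128270310 (Stat2, plus), chr8:71537565-71537624 (Bst2, minus) and chr3:142559977-142560036 (Gbp3, plus). The stretches of Ifit1 and Ifit3 each held 2 separate cores, that of Isg15 held 3 overlapping cores, and those of Oas1a, Bst2 and Gbp3 held 2 overlapping cores. The window of Trim25, the 1 member called higher at 4 h of forskolin, held none of the searched motifs. Oasl1, which was high after 1 day of forskolin, had no ISRE core in its window and 2 matches to the shorter core TGACG. The other members with TGACG were Oasl2, Ifih1 and Tap1, all called lower at 4 h, and Irf7 and Rsad2, which were not called there. One of the 2 matches of Oasl1, read on the other strand as CGTCA, lies in the 60 bases at chr5:114923049-114923108 on the plus strand.
Oasl1: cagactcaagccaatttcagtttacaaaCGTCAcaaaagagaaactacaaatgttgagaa

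The libraries held 14056200 (FSK3D S11) to 56282582 (Rosi3D S13) counts and are named by group and by the running number of their column. Values are CPM, the counts of a gene per 1e+06 counts of its library, after scaling by TMM factors (trimmed mean of M values). Whether separate cultures gave the 3 libraries of each group is not stated in the labels, so the p-values rest on a spread that may be technical. Lists of response genes, chosen with earlier results of these data known, describe the treatments and test nothing. All 11 genes of a cAMP response list were called higher in FSK4h than in vehicle, against 28.4% of all genes. All 8 genes of a rosiglitazone response list were called higher in Rosi3D, against 28.6%. The rosiglitazone list was not particular to that drug. It summed to 2430 to 2830 CPM in vehicle, 3910 to 4320 in FSK4h, 4610 to 5140 in FSK3D and 10400 to 12000 in Rosi3D. The adipocyte hormone Adipoq stood at 1450 to 1630 CPM in the vehicle libraries. The summed CPM of 8 adipocyte markers ran from 8260 to 9570 in vehicle and from 9020 to 10500 in FSK4h. It was 6720 to 7360 in the FSK1D libraries, 14500 to 14600 in those of FSK3D and 19200 to 20400 in those of Rosi3D. Lpl was the largest part of this sum, with group means of 4870 CPM in vehicle, 3990 in FSK1D and 8670 in FSK3D. In FSK1D Lpl, Adipoq and Plin1 were called lower than in vehicle and Cidec higher (log2 fold change 0.51 ± 0.073). Fabp4, Pparg, Lipe and Cd36 were not called there. The part of this marker shift in the results below was not tested, and in these bulk libraries fewer cells that express a gene and less RNA of it per cell cannot be told apart.

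The interferon-stimulated genes varied more between libraries of 1 group than most genes, and they varied together. The median SD of the 35 tested members on the log2 CPM scale was 0.255 in vehicle, 0.284 after 4 h, 0.625 after 1 day and 0.383 after 3 days of forskolin, and 0.257 after rosiglitazone. Over all 14421 tested genes the median SD was 0.0932, 0.0965, 0.102, 0.113 and 0.0952 in the same groups. In FSK1D all 35 tested members were highest in library S8 and all 35 were lowest in S9, although a library held the highest value of 31.2% to 36.4% of all genes in that group. The median member was 2.33-fold higher in S8 than in S9. The other groups had the same kind of order at a smaller size. Of the 35 members, 34 were highest in vehicle S1, 31 in FSK4h S4, 32 in FSK3D S11 and 29 in Rosi3D S14. The lowest library was vehicle S2 for 26 members, FSK4h S5 for 34, FSK3D S12 for 33 and Rosi3D S15 for 34. The median member was 1.34-fold higher in vehicle S1 than in S2, 1.46-fold in FSK4h S4 than in S5, 1.59-fold in FSK3D S11 than in S12 and 1.40-fold in Rosi3D S14 than in S15. The high library was the deepest of its group for S1 and S4 and the shallowest for S11 and S14. Whether cultures, handling or sequencing set this order was not tested.

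**Figure D1:**
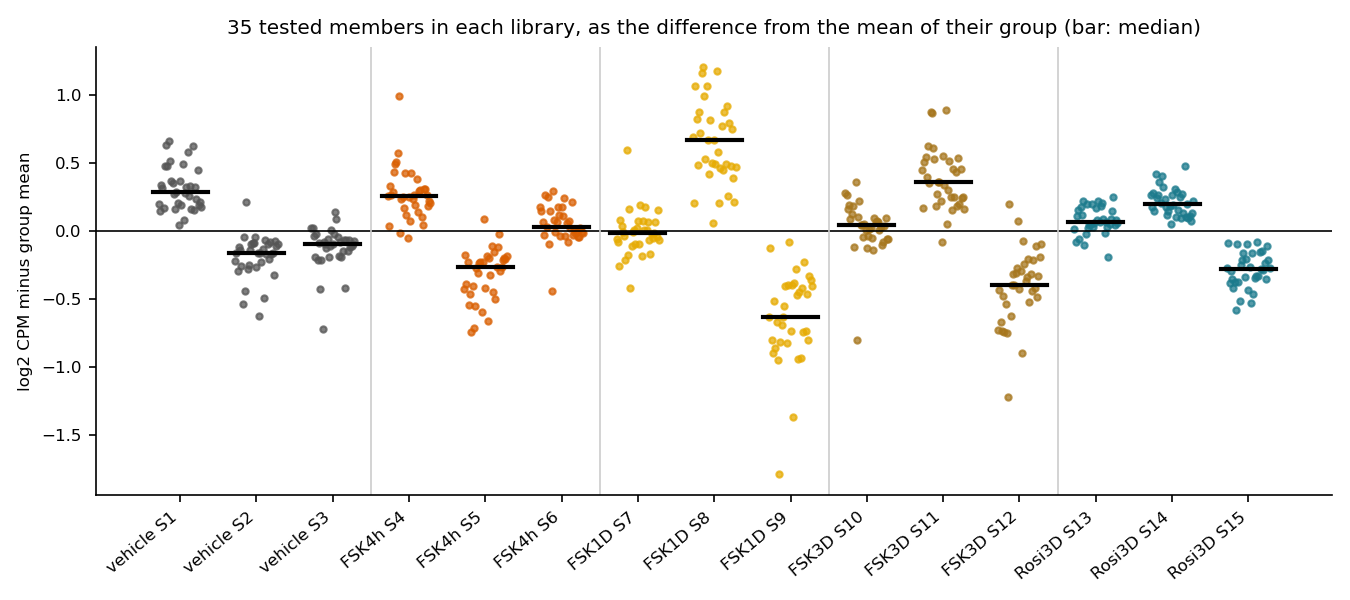
Each point is 1 of the 35 tested members in 1 library, as log2 CPM minus the mean of its group (y axis), the libraries are on the x axis, colours mark the groups and the bar is the median of the members. All members lie highest in FSK1D S8 and lowest in FSK1D S9 within their group, and vehicle S1, FSK4h S4, FSK3D S11 and Rosi3D S14 stand above the other libraries of their groups.

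Usp18, the protease that removes ISG15 from proteins and blocks IFNAR2 signalling, shows the pattern within FSK1D. It stood at 14.4, 40.2 and 12.4 CPM in S7, S8 and S9. Oasl2 stood at 25.9, 47.7 and 14.4 CPM in the same libraries, and Ifi44 at 3.86, 7.69 and 1.26 CPM. All 3 genes were highest in S8, where each lay above every vehicle library or within their range, and S9 lay below every vehicle library. Irf1, a transcription factor induced mainly by interferon-gamma and inflammatory signals, was an exception, at 57.6, 59.0 and 53.6 CPM. Its SD on the log2 scale was the smallest of the members in FSK1D (0.0724).

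At 4 h of forskolin the members were mostly lower than in vehicle. Of the 35 tested members, 21 fell (60%) and 1 rose, Trim25, in a comparison in which 30.7% of all tested genes were called lower and 28.4% higher. The median log2 fold change of the members was -0.892, and that of all genes was -0.035. A fall of at least 2-fold was called for 12 members (34.3%), against 6.30% of all genes. In 26 members (74.3%) each FSK4h library lay below each vehicle library, against 33.7% of all genes. Scaling by library size alone moved the median of all genes by a further -0.193 and gave 24 members called lower and 1 higher. Under that scaling 27.3% of all calls were higher, against 48.1% with the trimmed mean. The count of members called lower was 13 without vehicle S1, 12 without FSK4h S5 and 13 without FSK4h S6. No share of all genes is set beside the counts without 1 library. Of the 22 called members, 13 were called in every alternative run.

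All 3 genes of the IFIT family, RNA-binding proteins that block translation of viral mRNA, fell at 4 h, and Ifit3 and Ifit2 had the largest falls among the members. Ifit2 (chr19:34550694-34576419, plus strand, GRCm38) stood at 91.8, 73.8 and 83.8 CPM in the vehicle libraries and at 18.3, 15.8 and 19.8 CPM in FSK4h. The groups lay far apart, with a log2 fold change of -2.20 ± 0.17 (SE; edgeR quasi-likelihood test, adjusted p = 4.59e-07). Ifit3 (chr19:34583531-34588731, plus strand) stood at 60.7, 39.1 and 46.9 CPM in vehicle and at 12.2, 7.36 and 10.1 CPM in FSK4h, a change of -2.29 ± 0.45 (adjusted p = 0.00107). Ifit1 (chr19:34640871-34650009, plus strand) stood at 126, 93.7 and 111 CPM in vehicle and at 44.0, 27.3 and 41.5 CPM in FSK4h, a change of -1.54 ± 0.37 (adjusted p = 0.00384). No FSK4h library reached a vehicle library in any of these genes, and all 3 calls held in every alternative. Ifit3 has the near-identical neighbour Ifit3b, which also fell (-2.11 ± 0.50), and reads of this pair may have been divided between them.

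Of the RIG-I-like helicases, which sense viral RNA, all 3 were called lower at 4 h. Ddx58, which encodes RIG-I, stood at 107, 80.4 and 81.0 CPM in vehicle and 43.5, 31.1 and 36.4 CPM in FSK4h (log2 fold change -1.27 ± 0.29). Dhx58, which encodes the regulatory helicase LGP2, stood at 21.4, 16.5 and 15.3 CPM in vehicle and 7.15, 3.48 and 5.98 CPM in FSK4h (-1.65 ± 0.40). Both sets of libraries were separate, and both calls held in every alternative. Ifih1, which encodes MDA5, fell less (-0.64 ± 0.22, adjusted p = 0.0307), and its call was lost without any 1 of the 3 vehicle libraries or without FSK4h S5 or S6.

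Among the transcription factors, Irf1 (chr11:53770014-53778374, plus strand) gave the most even values. It stood at 49.6, 46.5 and 48.3 CPM in vehicle and at 25.1, 27.5 and 25.3 CPM in FSK4h, a log2 fold change of -0.89 ± 0.065 (adjusted p = 6.77e-14). The libraries of each group lay close together and the groups did not overlap. Stat2, the ISGF3 subunit that carries the main activation domain, fell by 0.84 ± 0.23 on the log2 scale, from 86.1 ± 10.8 to 47.9 ± 6.43 CPM (SD, n = 3). Irf9, the DNA-binding subunit of ISGF3, fell from 38.4 ± 4.79 to 25.1 ± 2.67 CPM (-0.61 ± 0.23, adjusted p = 0.0435), a call that was lost with RLE size factors and without 10 of the 15 libraries in turn. Irf7, the regulator that amplifies type I interferon production, was at 24.6 ± 5.84 and 14 ± 3.27 CPM (-0.80 ± 0.39, adjusted p = 0.103) and was not called. Irf9 shares exonic bases with Rnf31 on the same strand, and Irf7 with Phrf1 on the opposite strand, so part of their reads is uncertain.

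The PARP9-DTX3L group, an ADP-ribosyltransferase and its ubiquitin ligase partner that act together in interferon signalling, fell together with Parp14, a further ADP-ribosyltransferase. Parp9 changed by -0.99 ± 0.21, Dtx3l by -1.0 ± 0.24 and Parp14 by -1.45 ± 0.43 on the log2 scale, and the call of Parp14 was lost without FSK4h S5. Parp9 and Dtx3l lie on opposite strands of chromosome 16 with shared exonic bases and were counted without a stated strand setting, so the reads of their shared bases cannot be told apart. Tap1, which carries peptides into the endoplasmic reticulum for MHC class I, fell from 42.5 ± 4.55 to 16.9 ± 2.29 CPM (-1.32 ± 0.22, adjusted p = 0.000305). Tap1 overlaps Psmb9 on the opposite strand. The guanylate-binding proteins Gbp2 (-0.72 ± 0.24) and Gbp3 (-1.13 ± 0.38) also fell, and both calls were lost without vehicle S1, FSK4h S5 or FSK4h S6.

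The OAS family, which makes the 2-5A messenger that activates RNase L, and the kinase PKR were less uniform at 4 h. Oasl2 fell (-1.56 ± 0.48, adjusted p = 0.0170), a call lost without vehicle S1, FSK4h S5 or S6. Eif2ak2, which encodes PKR, fell by 0.51 ± 0.20 on the log2 scale (adjusted p = 0.0438), a call lost with RLE size factors and without 10 of the 15 libraries in turn. The other OAS members were not called, at -0.64 ± 0.44 (Oas1a), -1.09 ± 0.56 (Oas2), -0.94 ± 0.62 (Oas3) and 0.29 ± 0.33 (Oasl1). Oas1a belongs to a cluster of near-identical genes and its reads are uncertain. Of the 10 tested members in the remaining group of antiviral effectors, 4 fell (Mx2, Ifi35, Xaf1 and Rtp4). Rtp4, an interferon-induced chaperone, went from 39.1, 27.8 and 28.3 CPM to 14.7, 9.67 and 11.9 CPM (-1.38 ± 0.39, adjusted p = 0.0101), and all its vehicle libraries lay above all its FSK4h libraries. Mx2, annotated as a polymorphic pseudogene, was near the filter, at 1.02 ± 0.428 and 0.316 ± 0.251 CPM. Its groups overlapped, and its call was lost without vehicle S1 or S2 or FSK4h S5 or S6. Isg15, the ubiquitin-like modifier, stood at 14.3, 10.6 and 10.0 CPM in vehicle and 8.25, 5.82 and 6.70 CPM in FSK4h. These values did not overlap, yet the change of -0.74 ± 0.40 was not called (adjusted p = 0.139). Usp18 (-0.99 ± 0.41, adjusted p = 0.0558) was not called either.

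Trim25, the ubiquitin ligase that activates RIG-I and can attach ISG15, went the other way at 4 h. It stood at 184, 156 and 157 CPM in vehicle and at 460, 441 and 443 CPM in FSK4h. The groups lay far apart, with a log2 fold change of 1.43 ± 0.13 (adjusted p = 2.58e-06). Trim25 was also called higher than vehicle in FSK1D (0.40 ± 0.13, adjusted p = 0.0343), FSK3D (0.39 ± 0.13, adjusted p = 0.0283) and Rosi3D (0.74 ± 0.13, adjusted p = 0.000484). The 4 comparisons share the 3 vehicle libraries. The FSK1D call was lost when library size alone set the scale, in the fit of the 2 groups alone, and without any 1 of vehicle S2, vehicle S3, FSK1D S7 or FSK1D S8. The FSK3D call was lost without any 1 of vehicle S2, vehicle S3, FSK3D S10 or FSK3D S11. The gene lies at chr11:88999376-89020293 on the plus strand.

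**Figure D2:**
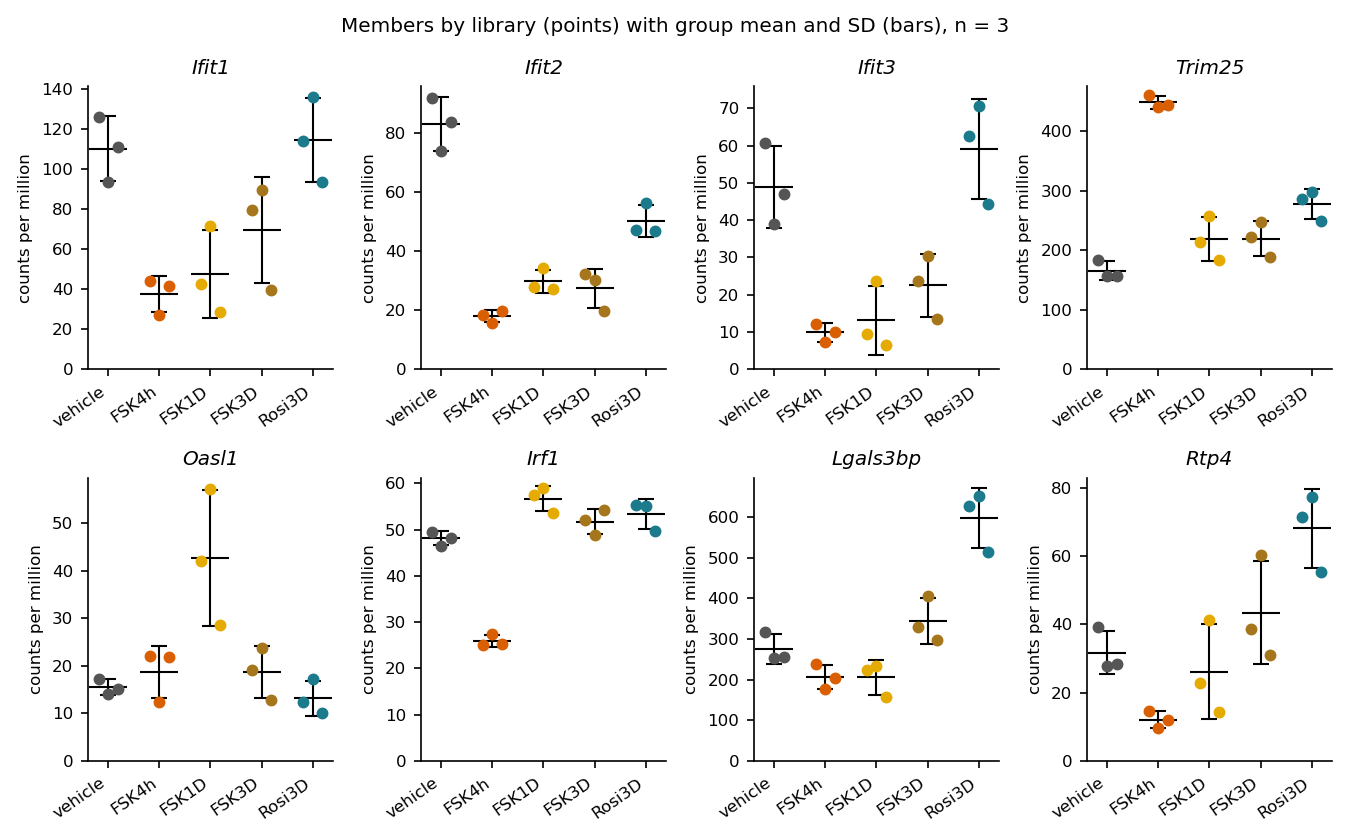
CPM (y axis, from 0) of 8 members in each library (points), with the group mean (horizontal bar) and SD (whiskers) of 3 libraries; the x axis gives the groups. Ifit2 is lower than vehicle in every treated group, Trim25 peaks at 4 h, Oasl1 at 1 day of forskolin, Irf1 dips at 4 h alone, and Lgals3bp and Rtp4 are highest in Rosi3D.

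After 1 day of forskolin 3 of the 35 tested members were higher than in vehicle and 4 were lower. The background was 19.5% of all genes called higher and 20.7% lower, so the members' shares (8.57% and 11.4%) were not above it. The median log2 fold change of the members was -0.264. The members that rose were Oasl1, Irf1 and Trim25, and those that fell were Ifit1, Ifit2, Ifit3 and Bst2. Oasl1, a relative of the OAS proteins that restrains the translation of Irf7, stood at 17.3, 14 and 15.1 CPM in vehicle and at 42.1, 57.3 and 28.6 CPM in FSK1D. All FSK1D libraries lay above all vehicle libraries, and the change was 1.46 ± 0.32 (adjusted p = 0.00342), held in every alternative. Without FSK1D S8 it was 1.21 and without S9 it was 1.70. Irf1 rose slightly, by 0.24 ± 0.062 (adjusted p = 0.00230), and this call too held in every alternative.

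Ifit2 was still low after 1 day, at 28.0, 34.2 and 27.2 CPM (-1.48 ± 0.17, adjusted p = 2.1e-05). Ifit3 stood at 9.42, 23.7 and 6.43 CPM (-1.89 ± 0.44) and Ifit1 at 42.6, 71.7 and 28.6 CPM (-1.21 ± 0.36, adjusted p = 0.0208). All 3 stayed below every vehicle library, with S8 the closest to it. The call of Ifit1 was lost without any 1 of vehicle S1, vehicle S3, FSK1D S7 or FSK1D S9 and in the fit of the 2 groups alone, and that of Ifit3 in that fit. Bst2, which encodes the membrane protein tetherin, stood at 80.5, 58.7 and 56.7 CPM in vehicle and 29.6, 40.6 and 21.2 CPM in FSK1D (-1.10 ± 0.29, adjusted p = 0.0101). Without library S8 the count of members called lower than vehicle was 9, and Oas2, Usp18, Ifi35, Gbp3 and Tap1 joined the others. Without S9 it was 3, and no share of all genes is set beside the counts without 1 library.

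After 3 days of forskolin 1 member was higher than in vehicle, Trim25, and 2 were lower, Ifit2 and Ifit3. Of all tested genes 25.9% were called higher and 27.0% lower in that comparison, and the members' shares (2.86% and 5.71%) were below that. The members' median log2 fold change was 0.055. Ifit2 stood at 32.3, 30.2 and 19.9 CPM, all far below the lowest vehicle library (-1.62 ± 0.17, adjusted p = 8.2e-06), and this call held in every alternative. Ifit3 stood at 23.8, 30.3 and 13.4 CPM (-1.17 ± 0.43, adjusted p = 0.0389), and its call was lost in the fit of the 2 groups alone and without any 1 of 7 libraries (vehicle S1 and S3, FSK4h S6, FSK3D S10 and S12, Rosi3D S13 and S14). Ifit1 lay below vehicle in every FSK3D library, at 79.8, 89.8 and 39.8 CPM, and was not called (-0.69 ± 0.36, adjusted p = 0.135).

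Between the forskolin times, 12 members (34.3%) were higher in FSK1D than in FSK4h, near the 28.4% of all genes called higher. Trim25 alone was lower, against 28.9% of all genes. The median of the members was 0.649. From 4 h to 3 days 21 members rose (60%), against 35% of all genes called higher, and Trim25 alone fell, against 33.5% called lower, with a member median of 0.778. Scaling by library size alone gave 23 higher and 1 lower there, and 18 higher and 1 lower from 4 h to 1 day. It moved the median of all genes by 0.179 and 0.164 and raised the share of higher calls among all calls from 51.1% to 65.1% and from 49.6% to 68.8%. The count of 21 was 13 without FSK4h S5, and the count of 12 was 21 without FSK1D S9. Tap1 rose from 19.4, 14.8 and 16.6 CPM at 4 h to 42.0, 49.2 and 41.0 CPM at 3 days (log2 fold change 1.36 ± 0.22). Irf1 rose from 26 ± 1.36 at 4 h to 56.7 ± 2.82 at 1 day and 51.7 ± 2.71 CPM at 3 days. From 1 day to 3 days 3 members rose, Bst2, Gbp3 and Lgals3bp (background 25.2%), and 2 fell, Oasl1 and Rsad2 (background 25.8%). Lgals3bp was the 1 of these 5 whose call held in every alternative. Without FSK1D S8 14 members were called higher and without FSK1D S9 1 was, while the count of members called lower was 5 without S9. No share of all genes is set beside any of these counts without 1 library.

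Rosiglitazone for 3 days gave the opposite direction in much of the list. Of the 35 tested members 11 were higher than in vehicle (31.4%) and 1 was lower, Ifit2. The background was 28.6% of all genes called higher and 32.0% lower, so the share called higher was near it. The median log2 fold change of the members was 0.546, against -0.012 over all genes. In 16 members (45.7%) all Rosi3D libraries lay above all vehicle libraries, against 31.8% of all genes. The members that rose were Mx2, Irf1, Irf7, Ifi44, Ifi35, Parp9, Dtx3l, Trim25, Rtp4, Gbp3 and Lgals3bp. The count of members called higher was 5 without vehicle S2, 7 without vehicle S3, 6 without Rosi3D S13 and 7 without Rosi3D S14. It was 20 without FSK1D S8 and 17 without FSK1D S9, which are not libraries of this comparison. They enter through the shared estimate of the spread, the filter, the scaling and the adjustment, all set again in each run. The fit of the 2 groups alone gave 23. No share of all genes called in these runs is set beside the counts, so they show only how the calls depend on the processing.

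Lgals3bp, a secreted glycoprotein that binds galectin-3, had the highest level per length among the members in vehicle (127 CPM per kilobase of exon). It stood at 317, 254 and 255 CPM in vehicle and at 628, 651 and 513 CPM in Rosi3D. The groups were far apart, and the change of 1.12 ± 0.18 (adjusted p = 0.00027) held in every alternative. The largest change was that of Mx2, from 1.39, 1.12 and 0.550 CPM to 3.31, 4.46 and 2.57 CPM (1.72 ± 0.45, adjusted p = 0.00296). Ifi44 went from 5.42 ± 1.98 to 16.0 ± 4.61 CPM (1.56 ± 0.56), Irf7 from 24.6 ± 5.84 to 52.7 ± 12.8 CPM (1.10 ± 0.36) and Rtp4 from 31.7 ± 6.41 to 68.1 ± 11.4 CPM (1.10 ± 0.35). The calls of these 3 were lost without vehicle S2 or vehicle S3. Gbp3 rose by 1.08 ± 0.35 and Ifi35 by 0.58 ± 0.20 on the log2 scale, and both calls were lost without vehicle S2 or Rosi3D S13. Parp9 stood at 44.9, 35.9 and 32.9 CPM in vehicle and 67.2, 72.6 and 64.3 CPM in Rosi3D (0.84 ± 0.19, adjusted p = 0.00294), with no overlap.

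The IFIT genes were apart from this pattern. Ifit2 was lower in Rosi3D than in vehicle, at 47.2, 56.5 and 46.9 CPM (-0.73 ± 0.16, adjusted p = 0.00195), in every alternative. Ifit1 was at 114, 136 and 93.7 CPM (0.052 ± 0.34, adjusted p = 0.912) and Ifit3 at 62.6, 70.5 and 44.4 CPM (0.27 ± 0.39, adjusted p = 0.577), and both overlapped the vehicle libraries. Isg15 (0.64 ± 0.37), Rsad2 (0.83 ± 0.35), Oas2 (1.05 ± 0.49) and Cmpk2 (0.84 ± 0.39) were not called. Oasl1 was at 12.3, 17.2 and 10.0 CPM, overlapping its vehicle range (-0.25 ± 0.34, adjusted p = 0.554).

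**Figure D3:**
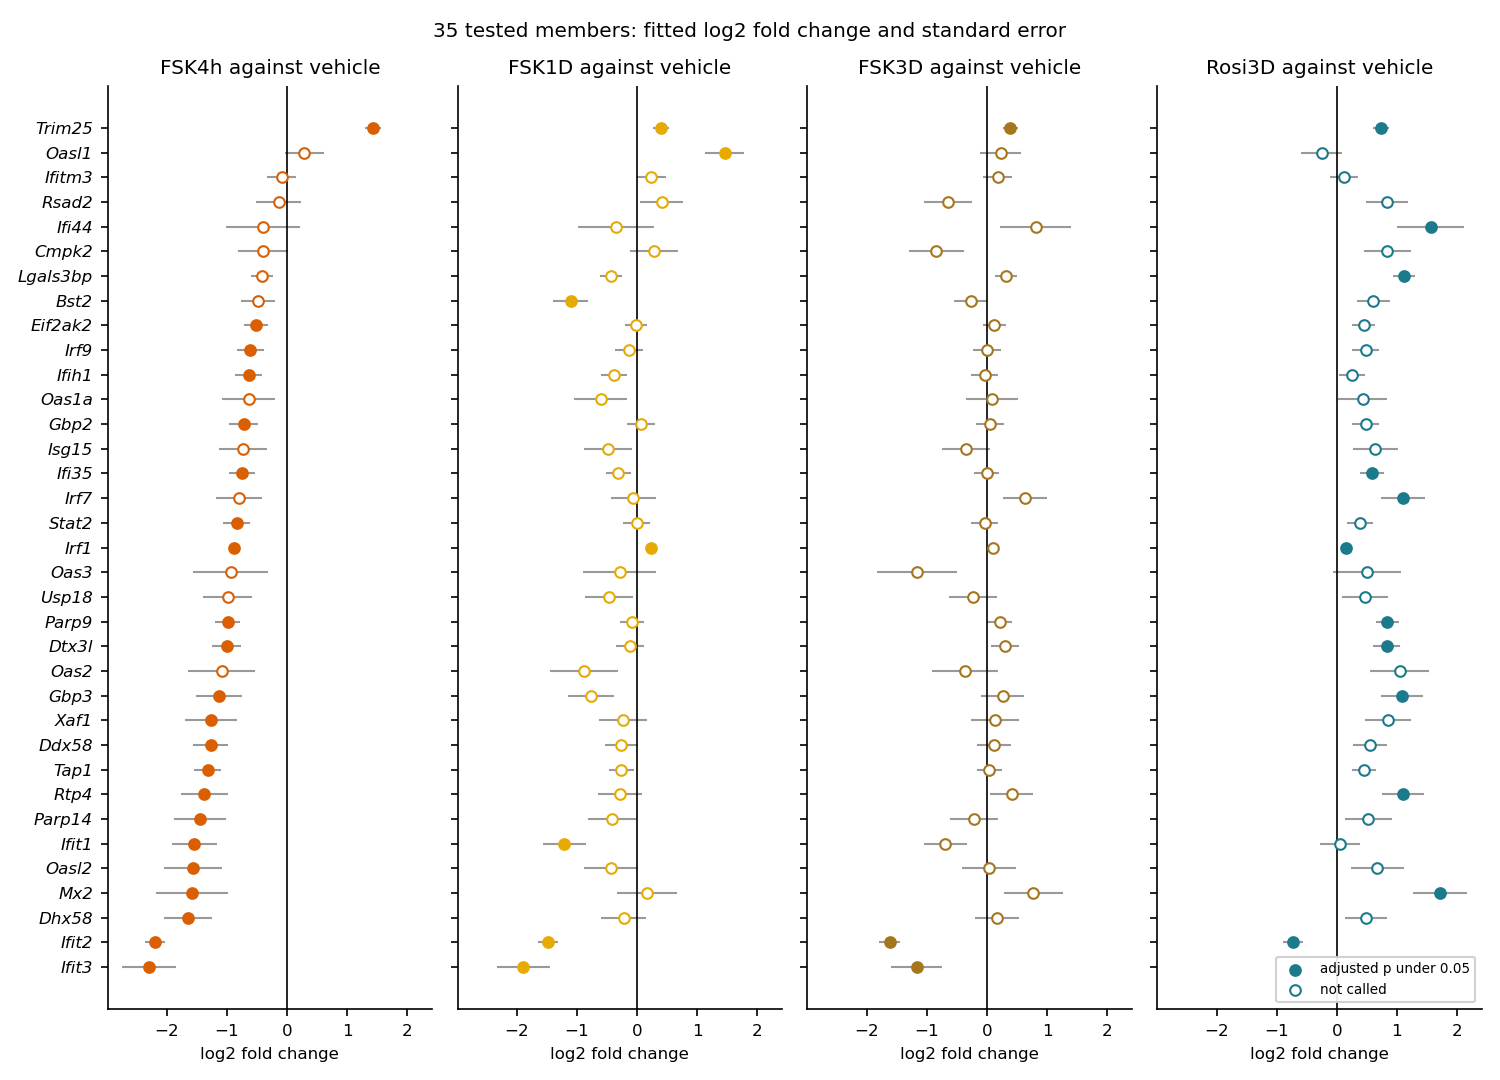
Fitted log2 fold change (x axis) and standard error of the 35 tested members (y axis, ordered by their change at 4 h) in each treated group against the same 3 vehicle libraries; filled points passed an adjusted p of 0.05 and open points did not. The points lie mostly left of 0 at 4 h, around 0 at 1 and 3 days of forskolin and mostly right of 0 with rosiglitazone, with Trim25 to the right and Ifit2 to the left in all 4 panels.

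The 3-day treatments were set against each other directly. Of the 35 tested members 0 were higher and 8 were lower (22.9%) in FSK3D than in Rosi3D. Of all genes 22.5% were called higher and 20.7% lower, so the members' share called lower was near the background. At an unadjusted p under 0.05 edgeR gave 0 members higher and 15 lower, and DESeq2 gave 0 higher and 10 lower after adjustment. The shares of all genes under these settings are not given here, so these counts have no background beside them. The members' median was -0.637, against 0.003 over all genes, and in 16 members (45.7%) all FSK3D libraries lay below all Rosi3D libraries, against 25.1% of all genes. The members that were lower were Ifit2, Ifit3, Rsad2, Ifi35, Bst2, Parp9, Cmpk2 and Lgals3bp. Rsad2, which encodes the antiviral enzyme viperin, stood at 6.28, 8.43 and 3.75 CPM in FSK3D and 18.1, 19.7 and 11 CPM in Rosi3D. Every FSK3D library was below every Rosi3D library, at -1.48 ± 0.38 (adjusted p = 0.00900). Cmpk2, a nucleotide kinase next to Rsad2 on chromosome 12, stood at 1.71, 2.33 and 1.24 CPM in FSK3D and 4.63, 7.39 and 4.36 CPM in Rosi3D (-1.68 ± 0.44, adjusted p = 0.00740). The calls of Ifit2, Rsad2, Cmpk2 and Lgals3bp held in every alternative. The count of 8 was 4 without FSK3D S12 or Rosi3D S14, 5 without FSK3D S10 or Rosi3D S13, 16 without FSK1D S8 and 14 without FSK1D S9. These counts too have no share of all genes beside them.

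The 28 members with a promoter window were also described by the ISRE core, with no test. The median log2 fold change in FSK4h against vehicle was -0.73 for the 14 with the core and -0.777 for the 14 without, with 8 called lower in each. In Rosi3D the medians were 0.465 and 0.707, with 1 and 7 called higher. Ifit2, Irf1 and Ifi35 each had a GAS match and no ISRE core in their windows.

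The interferon genes themselves were almost silent. None of the 11 ligand genes on the list passed the filter, their summed level was 0.0364 to 0.653 CPM per library, and Ifng, Ifnl2, Ifnl3 and Ifna5 were at 0 counts in all 15 libraries. Ifnb1 had 0 to 4 counts per group. Of the 6 receptor genes all were tested. Ifngr1, the ligand-binding chain of the interferon-gamma receptor, stood at 113 ± 6.06 CPM in vehicle and at 74.3 ± 2.09, 97.5 ± 1.71 and 155 ± 0.79 CPM after 4 h, 1 day and 3 days of forskolin, with 178 ± 1.86 CPM after rosiglitazone. It fell at 4 h (-0.61 ± 0.047) and 1 day (-0.22 ± 0.046) and rose at 3 days of forskolin (0.45 ± 0.046) and of rosiglitazone (0.65 ± 0.045). Ifnar2, the signalling chain of the type I receptor, rose in the 3 forskolin groups (0.22 ± 0.089, 0.46 ± 0.089 and 0.37 ± 0.090) and fell in Rosi3D (-0.51 ± 0.092). Ifnar1 was called higher in FSK1D (0.18 ± 0.052) and FSK3D (0.13 ± 0.053). Of the 6 receptors 3 were called higher and 2 lower at 4 h, where 28.4% and 30.7% of all genes were, and 3 and 1 at 1 day (all genes 19.5% and 20.7%). The counts were 4 and 1 at 3 days of forskolin (25.9% and 27.0%) and 1 and 3 with rosiglitazone (28.6% and 32.0%), too few genes to set against these shares.

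Signal transducers downstream of the receptors also changed at 4 h. Stat3, which carries signals of the interleukin-6 family, stood at 136, 128 and 132 CPM in vehicle and 489, 518 and 505 CPM in FSK4h (1.93 ± 0.046, adjusted p = 2.81e-27). It was at 296 ± 4.60 CPM in FSK1D, 181 ± 8.57 in FSK3D and 89.6 ± 4.17 in Rosi3D, where it fell (-0.56 ± 0.047). Jak1 and Jak2 rose at 4 h (0.44 ± 0.041 and 0.49 ± 0.049) and Tyk2 fell (-0.80 ± 0.089).

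Of 14 negative regulators of the pathway 6 rose and 4 fell at 4 h, against 28.4% and 30.7% of all genes. The count that fell was near the background, and the count that rose was above it, over only 14 genes. Socs3, an inhibitor of JAK kinases that is itself a STAT3 target, stood at 14.9, 14.6 and 13.1 CPM in vehicle and 69.5, 76.6 and 67.4 CPM in FSK4h (2.32 ± 0.080, adjusted p = 9.47e-23). It was still at 61.9 ± 3.63 CPM after 1 day, was at 15.2 ± 1.88 CPM after 3 days of forskolin, and fell to 7.21 ± 0.442 CPM in Rosi3D (-1.0 ± 0.094). The phosphatases Ptpn1 (0.63 ± 0.051) and Ptpn2 (0.96 ± 0.060), which remove phosphate from JAK kinases, rose at 4 h. Socs1, the main inhibitor of interferon receptors in many cells, was at 3.85 ± 0.675 CPM in vehicle and 3.71 ± 0.253 CPM in FSK4h (-0.053 ± 0.19). In the other groups 4 were higher and 3 lower in FSK1D, 4 and 3 in FSK3D and 2 and 3 in Rosi3D. The 4 higher in FSK1D were above the share of all genes (19.5%), in a list of only 14. The other counts were near or below the shares of all genes given for the receptors.

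**Figure D4:**
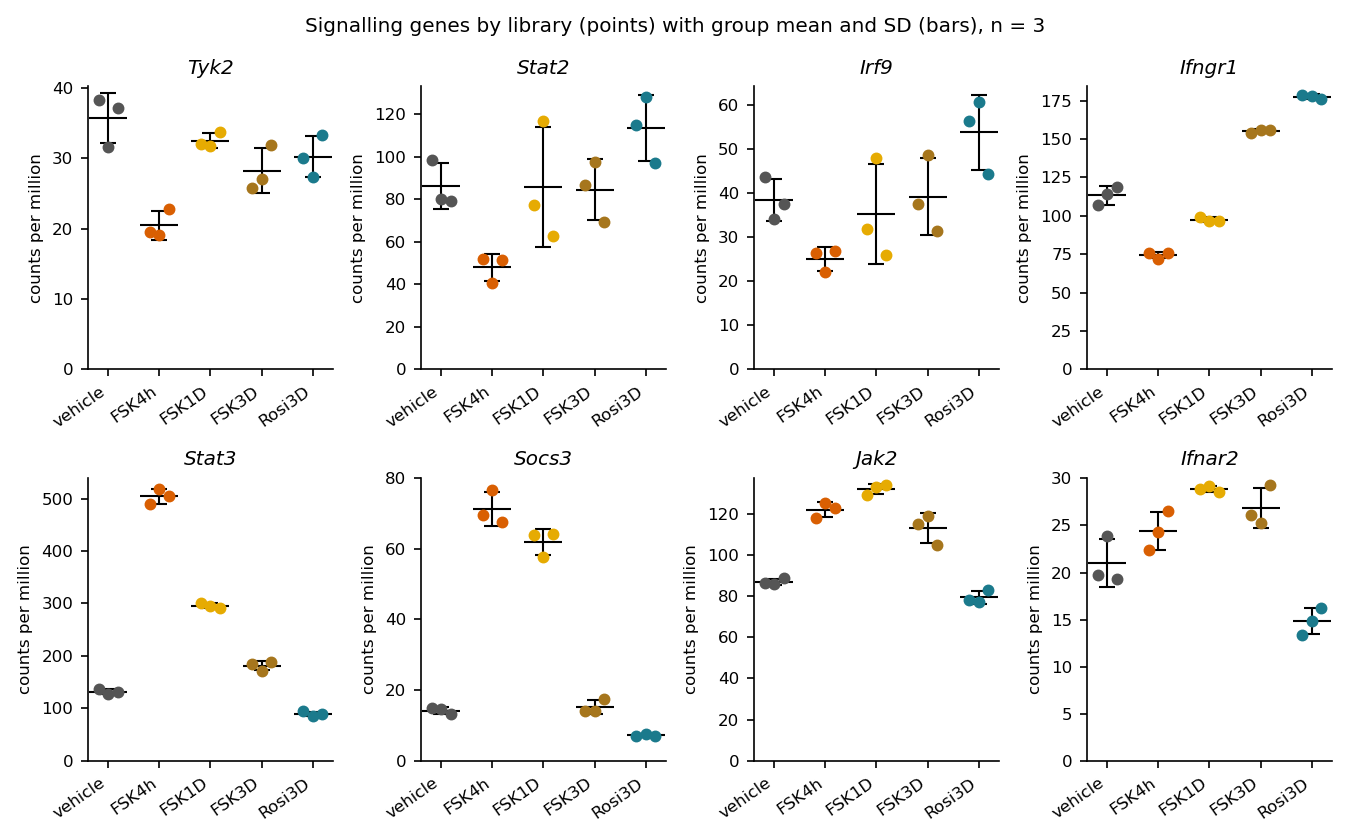
CPM (y axis, from 0) of 8 genes of interferon signalling in each library (points), with the group mean (horizontal bar) and SD (whiskers) of 3 libraries; the x axis gives the groups. Stat3 and Socs3 are highest at 4 h of forskolin, while Ifngr1 is highest in Rosi3D and Stat2 and Irf9 are lowest at 4 h.

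Further interferon targets outside the 36 were counted from lists chosen with results of these data known. Of 52 tested further type I targets 27 were lower and 5 higher in FSK4h than in vehicle (median -0.404), against 30.7% and 28.4% of all genes. There were 10 lower and 7 higher in FSK1D (all genes 20.7% and 19.5%) and 8 and 6 in FSK3D (27.0% and 25.9%). In Rosi3D 10 were lower and 14 higher (median 0.302), the first below the share of all genes (32.0%) and the second near it (28.6%). Ddx60, an RNA helicase, fell at 4 h from 24.5 ± 5.97 to 7.48 ± 2.42 CPM (-1.68 ± 0.43), and Trafd1, a feedback inhibitor of innate signalling, from 87.5 ± 4.80 to 31.2 ± 3.97 CPM (-1.49 ± 0.072). Bcl3, a nuclear IκB protein, rose at 4 h from 0.815 ± 0.15 to 4.27 ± 0.496 CPM (2.40 ± 0.25), and Ly6a, the stem cell antigen Sca-1, rose at 1 day from 121 ± 13.7 to 431 ± 5.80 CPM (1.83 ± 0.17). Of 31 tested interferon-gamma targets and MHC class I genes 15 were lower and 2 higher at 4 h (median -0.425), 2 and 1 in FSK1D, 2 lower and 11 higher in FSK3D, and 0 lower and 17 higher in Rosi3D (median 0.527), to be read against the same shares of all genes. Irgm2 and Gbp7, GTPases that act on intracellular pathogens, fell at 4 h (-1.80 ± 0.38 and -1.71 ± 0.29). Cd274, which encodes PD-L1, rose there from 8.03 ± 0.780 to 24.4 ± 1.87 CPM (1.59 ± 0.11). Of 18 tested nucleic acid sensors and their adaptors 5 were higher and 7 lower at 4 h, 6 and 1 in FSK1D, 7 and 3 in FSK3D and 7 and 5 in Rosi3D, again beside those shares. Zbp1, a sensor of Z-form nucleic acid, rose at 1 day from 5.10 ± 1.46 to 26.5 ± 8.39 CPM (2.37 ± 0.38), and Tlr3, a sensor of double-stranded RNA, fell at 4 h (-1.39 ± 0.16).

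Leukocyte markers were low in all libraries. Their summed level over 12 genes was 4.51 to 5.06 CPM in vehicle, 9.91 to 11.6 CPM after 4 h and 10.2 to 11.5 CPM after 1 day of forskolin. It was 5.18 to 6.1 CPM after 3 days of forskolin and 2.76 to 4.28 CPM after rosiglitazone, with C1qa and Tyrobp at 0 in all groups. Of these markers 3 were tested, and Csf1r and Cd14 rose at 4 h (1.67 ± 0.28 and 1.40 ± 0.20) and at 1 day (1.93 ± 0.28 and 1.68 ± 0.20). The other tested marker, Cd68, was not called at 1 day (-0.13 ± 0.24) and was lower there than at 4 h (-0.61 ± 0.24). Ptprc, Adgre1 and Cd3e were at 0 in FSK1D. Of 5 markers of plasmacytoid dendritic cells, a main source of type I interferon in tissues, 1 is the member Bst2, and their sum was 150 to 180 CPM in vehicle and 105 to 112 CPM in FSK4h. Siglech and Irf8 were at 0 to 0.245 CPM. The transcription factor Tcf4 fell at 4 h from 94.2 to 60.9 CPM (-0.63 ± 0.059), and the chemokine receptor Ccr9 from 1.59 to 0.891 CPM (-0.87 ± 0.30). The 4 mesothelial markers summed to 89.3 to 95.5 CPM in vehicle, 343 to 395 CPM in FSK4h, 89.5 to 101 CPM in FSK1D, 34.1 to 35.7 CPM in FSK3D and 27.8 to 32.4 CPM in Rosi3D, with Wt1 at 0 in all groups. Most of this sum was the keratin gene Krt19, which rose at 4 h (2.08 ± 0.056). The 5 smooth muscle and pericyte markers summed to 218 to 228 CPM in vehicle, 161 to 174 CPM in FSK4h and 19.2 to 20.7 CPM in FSK1D. They summed to 52.1 to 60.4 CPM in FSK3D and 48.0 to 49.3 CPM in Rosi3D, and the actin gene Acta2 fell at 4 h (-0.43 ± 0.051) and at 1 day (-3.74 ± 0.062). Most of this sum was Acta2, with a mean of 214 CPM in vehicle. Myh11 and Cnn1 also fell at 1 day (-1.65 ± 0.25 and -1.27 ± 0.21). In Rosi3D Myh11 stood higher, at a mean of 9.18 CPM against 3.28 CPM in vehicle. The summed level of 5 endothelial markers was 3.39 to 9.41 CPM over all libraries. Progenitor markers summed to 603 to 630 CPM in vehicle and 318 to 337 CPM in Rosi3D, with Dpp4 at 0 in the 4 treated groups. The sum was 516 to 557 CPM in FSK4h, 470 to 519 in FSK1D and 502 to 524 in FSK3D. Pdgfra was called higher than vehicle in FSK1D (0.42 ± 0.043) and FSK3D (0.34 ± 0.043). Pdgfrb was called lower in both (-0.94 ± 0.056 and -0.72 ± 0.056). The part of these marker shifts in the members' changes was not tested.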

How the data were processed

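RNA of 15 libraries of differentiated MAP adipocytes was measured. In the table the authors deposited, each value is a raw count of reads for 1 gene, a whole number. The submitters' processing notes name GRCm38 (mm10), fastp, STAR and featureCounts. Their versions, the annotation and the strand setting were not stated there. Low counts were mostly even (407 to 539 genes with a count of 1 and 721 to 907 with a count of 2 per library), as when both mates of a pair are counted. Columns name the group and a running number, not the labels' replicate number, so each was used as an unnumbered library.

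The members and the gene lists were chosen with earlier results of these data known. Counts were tested in R 4.3.3 with edgeR 4.0.16 (filterByExpr, 14421 of 24421 genes; trimmed mean of M values; robust quasi-likelihood fit with 1 mean per group over all 15 libraries, 10 residual degrees of freedom), with Benjamini-Hochberg adjustment over all tested genes and calls at an adjusted p under 0.05. The common biological coefficient of variation was 5.97%. Rn45s, a ribosomal RNA gene, took 4.15% to 8.87% of counts and stayed in the totals. Named genes were the called members with the largest changes per comparison, the members of each role with high levels per length, called receptors, transducers and negative regulators, and of other lists up to 5 called genes with the largest changes. Members not called, Socs1, the ligands and the marker genes are named as list members. Alternatives were RLE size factors, library size alone, no filter, a filter at 1 CPM in 3 libraries, DESeq2 1.42.0, a fit of the 2 groups compared, halved counts and leaving out each library. One gene of the pathway is not reported here. Positions and lengths came from GENCODE on GRCm38, promoter windows from RefSeq.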

Additional observations from a re-analysis of the deposited data

How the results depend on the processing

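No paired analysis was possible because the columns carry none of the replicate numbers of the labels. Over 6160 values of single members under the alternatives, 5677 stayed on their side of the threshold, 185 lost their call and 298 gained one. Among values called in the main fit or in the alternative, 0 changed sign. Where neither was called, the sign was not compared. Called members that held in every alternative numbered 13 of 22 in FSK4h, 4 of 7 in FSK1D, 1 of 3 in FSK3D and 6 of 12 in Rosi3D against vehicle. Against Rosi3D 4 of 8 held in FSK3D. They numbered 5 of 13 in FSK1D and 14 of 22 in FSK3D against FSK4h, and 1 of 5 in FSK3D against FSK1D.

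Testing with no filter on low counts raised most counts. The median prior degrees of freedom of that fit were infinite, and the members' median quasi-dispersion was 0.915, against 11.1 in the main fit, where their median prior degrees of freedom were 0.3. Higher and lower calls without the filter were 2 and 30 in FSK4h, 5 and 17 in FSK1D, 11 and 10 in FSK3D and 30 and 2 in Rosi3D against vehicle. They were 1 and 31 for FSK3D against Rosi3D, 27 and 2 for FSK1D against FSK4h, 21 and 4 for FSK3D against FSK1D, and 30 and 2 for FSK3D against FSK4h. Fitting the 2 groups alone gave 2 lower for FSK1D and 23 higher for Rosi3D against vehicle, 14 lower for FSK3D against Rosi3D, 5 higher for FSK1D against FSK4h, and 1 higher and 0 lower for FSK3D against FSK1D. Halved counts gave 13 lower for FSK3D against Rosi3D. The shares of all genes called in these runs, and in those that leave out 1 library, are not set beside the counts. The counts therefore show how the calls depend on the processing, and not how the members stand to all genes.

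Leaving out 1 library at a time, the lower calls ran from 12 to 24 in FSK4h, 3 to 9 in FSK1D and 1 to 3 in FSK3D against vehicle. The higher calls ran from 5 to 20 in Rosi3D, 2 to 3 in FSK1D and 0 to 1 in FSK3D. FSK3D against Rosi3D had 4 to 16 lower calls. FSK1D against FSK4h had 8 to 21 higher and 1 to 2 lower, FSK3D against FSK1D had 1 to 14 higher and 1 to 5 lower, and FSK3D against FSK4h had 13 to 24 higher. An arm of 2 libraries is assumed to vary like the other groups. Scaled by library size, the members' median SD (log2) was 0.262 in vehicle and 0.62 in FSK1D. Depth limits Mx1, Mx2 and Oas3, which lie near the filter.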

Other observations

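Genes outside the list followed the members from library to library within the groups. The mean deviation of the 35 tested members from their group means gave 1 value for each of the 15 libraries. These values were largest in FSK1D S8 (0.647) and S9 (-0.632), so the r below leans most on that group. It was not computed for single groups. Pearson's r of each other gene with these values was used as a measure of likeness only, with no p, since the libraries of a group share their treatment and the members were chosen as one programme. Of 14386 other genes 82 (0.57%) had an r above 0.8, and 36 of these 82 were on the interferon lists. The most alike were Ddx60 (r = 0.993), Samd9l (0.991), which restricts virus translation, Gm12250 (0.981), Slfn8 (0.979) and Irgm2 (0.969). Samd9l stood at 93.7, 141 and 71.7 CPM in FSK1D S7, S8 and S9, and Irgm2 at 33.0, 61.0 and 19.3 CPM, so both were highest in S8 as the members were. Adar (0.954), the editor of double-stranded RNA, and Zbp1 (0.913) followed them as well. Genes on none of the lists included Uba7 (0.937), the activating enzyme for ISG15, Trim12c (0.937), Apol9a (0.932) and Apol9b (0.907). Others were Gm6548 (0.958), Cenpf (0.933), a kinetochore protein, Ddx24 (0.916), Cask (0.904) and Mcm10 (0.89), a DNA replication factor. The r does not show the size of a change. Per log2 unit of the members' mean deviation, Cenpf moved by 0.139, Ddx24 by 0.174, Cask by 0.101 and Mcm10 by 0.226. Ddx60 moved by 1.27 and Samd9l by 0.763. In 21 genes r was below -0.8. Among the members, each set against the mean of the others, the median r was 0.952. Irf1 (0.173), Mx2 (0.697) and Ifit2 (0.744) were the 3 members at or below 0.8.

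The further type I targets had the same libraries on top. Of 52 tested genes 46 were highest in FSK1D S8 and 41 lowest in S9, 42 were highest in vehicle S1, and 45 lowest in Rosi3D S15. Of the 31 tested interferon-gamma and MHC class I genes 22 were highest in FSK1D S8 and 24 lowest in S9. In Rosi3D 17 of them were highest in S13 and 12 in S14, whereas 29 of the 35 members were highest in S14. What set the order of the libraries was not tested.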
